A study of Drosophila melanogaster with 7 samples.

Results

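Merged regions that held called intervals of Dsk2, WOC, ROW and Z4 but none of HP1c were described in S2 cells, which were derived from Drosophila melanogaster embryos and grow in culture. Intervals of the 5 lists that shared at least 1 bp were chained into 13044 merged regions, and 1299 of them (9.96%) had exactly these 4 proteins. The regions were thus chosen by which lists had an interval in them, and the presence or absence of a protein in these regions is not in itself a result. Chromatin immunoprecipitation followed by sequencing was done with polyclonal antibodies on sonicated nuclei, with 1 library each for Dsk2 (rabbit antibody), WOC (rabbit), ROW (rabbit), Z4 (guinea pig) and HP1c (rabbit). One input library served Dsk2 and HP1c and another served WOC, ROW and Z4. The labels name no treatment, genotype or time, so the 5 libraries differ by antibody and input.

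HP1c belongs to the heterochromatin protein 1 family but is found mainly in euchromatin, and it carries a chromodomain. WOC and ROW are zinc-finger proteins that form a complex with HP1c and are known to recruit it to active promoters. Dsk2 is a ubiquilin, a ubiquitin-binding protein with a ubiquitin-like and a ubiquitin-associated domain, best known for handing substrates to the proteasome. Z4, encoded by putzig, is a zinc-finger protein of the decondensed interbands of polytene chromosomes. The study's title places Dsk2 in the stabilisation of HP1c at transcription start sites, and the regions described here are those where the partners were called and HP1c was not.

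The files hold positions only, so the depth of the libraries and the strength of each interval are unknown, and no replicate exists. No test was run, since regions of 1 library are not replicates of a condition. Shares carry exact (Clopper-Pearson) 95% intervals for counting error alone. Positions are in dm3 as deposited, left and right mean lower and higher coordinates, and no gene, strand or sequence was assigned because no dm3 annotation was used here.

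These 1299 regions took a sizeable part of every contributing list. They held 1385 of 4748 Dsk2 intervals (29.2%), 1398 of 5849 WOC intervals (23.9%), 1506 of 7491 Z4 intervals (20.1%) and 1556 of 8999 ROW intervals (17.3%). By length they held 26.0% of the bases in Dsk2 intervals, 27.8% of those in WOC, 27.3% in Z4 and 21.2% in ROW. The merged regions spanned 1366 kb in all.

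The make-up of a region was simple in most cases. In 877 regions (67.5%, interval 64.9 to 70.1%) each list gave exactly 1 interval, and another 296 (22.8%) held 5 intervals in all. Only 9 regions held over 8. Several intervals of the same list were most frequent for ROW, in 251 regions (19.3%), followed by Z4 in 152 (11.7%), WOC in 86 (6.62%) and Dsk2 in 75 (5.77%). In regions with all 5 proteins the corresponding shares were 25.7% for ROW, 26.4% for Z4, 19.0% for WOC and 16.1% for Dsk2.

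Merged widths centred below 1 kb. The median was 818 bp, with a range of 116 to 18231 bp and quartiles of 607 and 1173 bp. Widths over 500 and up to 1000 bp accounted for 689 regions (53.0%), and 114 regions exceeded 2000 bp. Regions with all 5 proteins had a median of 1160 bp. Regions with Dsk2, WOC and Z4 but neither ROW nor HP1c had a median of 392.5 bp, and those with WOC, ROW and Z4 but neither Dsk2 nor HP1c 664 bp. Chaining adds the extent of each further list, so these widths follow in part from the number of lists joined.

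Each protein filled a different part of that width. The summed Dsk2 width per region had a median of 234 bp (quartiles 116 and 371 bp) and the WOC width 288 bp (191.5 and 399.5 bp). The Z4 width had a median of 608 bp (437 and 808.5 bp) and the ROW width 456 bp. ROW varied most, with quartiles of 186.5 and 903 bp and a 90th percentile of 1696 bp.

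Single Dsk2 intervals were about as wide here as in all other merged regions, while those of the other 3 proteins were wider. The median Dsk2 interval was 221 bp in the 4-protein regions, against 214 bp elsewhere in its list and 414 bp in regions with all 5 proteins. The median WOC interval was 269 bp here, 373.5 bp with all 5 and 177 bp elsewhere. For Z4 it was 550.5 bp here, 531 bp with all 5 and 315 bp elsewhere, and for ROW 331 bp here, 474 bp with all 5 and 232 bp elsewhere. "Elsewhere" includes the regions with all 5 proteins. A wide interval chains more easily, so these differences are tied to the choice of regions.

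Across the 877 regions with 1 interval per list, widths of Dsk2 and WOC were ranked most alike (Spearman rho 0.71). Z4 widths followed WOC (rho 0.35), Dsk2 (0.32) and ROW (0.31) less closely. ROW width showed almost no relation to Dsk2 (-0.05) or WOC (-0.04). These coefficients describe 1 set of regions on which all 4 lists had to overlap in a chain, and each list is 1 library.

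Dsk2, WOC and Z4 usually lay on each other, and ROW often did not. Dsk2 and WOC shared bases in 1247 regions (96.0%, interval 94.8 to 97.0%), WOC and Z4 in 1225 (94.3%) and Dsk2 and Z4 in 1207 (92.9%). ROW shared bases with Dsk2 in 745 regions (57.4%, 54.6 to 60.1%) and with WOC in 751 (57.8%, 55.1 to 60.5%), but with Z4 in 1292 (99.5%). ROW had to be in the chain, so where it overlapped neither Dsk2 nor WOC it had to overlap Z4. In the median region WOC covered 92.0% of the Dsk2 bases and Z4 covered 100% of them, while ROW covered 13.1%. In regions with all 5 proteins, ROW overlapped Dsk2 in 77.3% and WOC in 75.4%. Intervals of ROW, Dsk2 and WOC were also wider there, and the part of width in these overlaps was not tested.

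A base common to Dsk2, WOC and Z4 existed in 1152 regions (88.7%, interval 86.8 to 90.4%), over a median of 192.5 bp. A base common to all 4 proteins existed in 567 (43.6%, interval 40.9 to 46.4%), over a median of 116 bp. The other 732 regions held the 4 proteins only as a chain. In regions with all 5 proteins, the same 4 lists shared a base in 601 of 921 (65.3%, interval 62.1 to 68.3%). Dsk2, WOC and ROW intervals were wider in those regions, and the part of width in this difference was not tested.

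Z4 was the list that most often held the chain together. Without its intervals 617 regions (47.5%) fell into separate pieces, against 186 (14.3%) without ROW, 34 without WOC and 9 without Dsk2. These counts rest on the same overlaps that define the regions. ROW formed the left edge of 738 regions (56.8%) and the right edge of 737 (56.7%). Z4 formed 394 left and 400 right edges, WOC 122 and 123, and Dsk2 54 and 48. A single ROW interval spanned the whole region in 249 cases and a single Z4 interval in 142.

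The place of ROW was classed relative to the stretch of bases shared by Dsk2 and WOC. ROW covered at least 1 base of that stretch in 655 regions (50.4%, interval 47.7 to 53.2%). It lay to the left only in 224 (17.2%), to the right only in 212 (16.3%) and on both sides without touching the stretch in 154 (11.9%). The 3 side classes together made 590 regions (45.4%, 42.7 to 48.2%), against 269 of 921 regions with all 5 proteins (29.2%, 26.3 to 32.3%). The remaining regions had no base common to Dsk2 and WOC (52) or ROW between separate stretches (2). Dsk2, WOC and ROW intervals were wider with all 5 proteins (medians 414, 373.5 and 474 bp, against 221, 269 and 331 bp here). Z4 intervals were not (531 against 550.5 bp). The part of interval width in the difference between the side classes of the 2 sets was not tested.

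**Figure D1:**
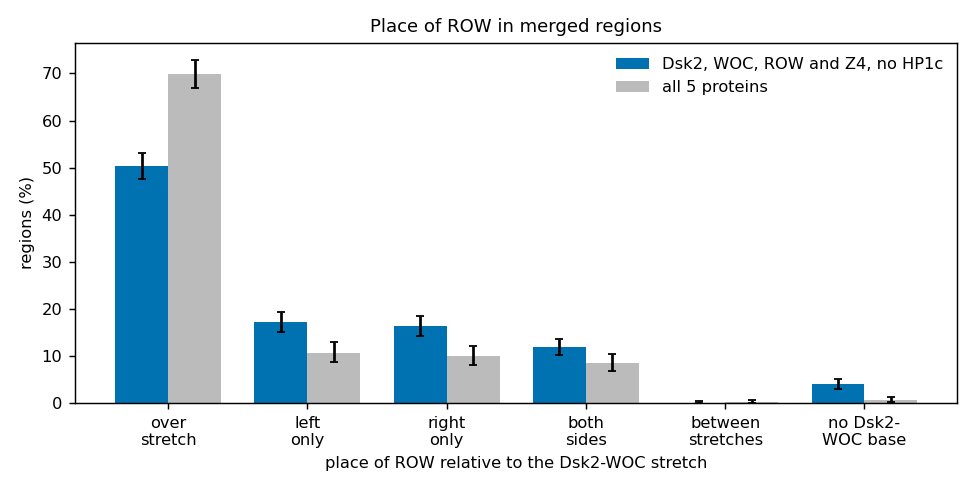
Share of merged regions (%, vertical axis) by the place of ROW relative to the bases shared by Dsk2 and WOC. Blue bars are the 1299 regions with Dsk2, WOC, ROW and Z4 and no HP1c, grey bars the 921 regions with all 5 proteins, and error bars exact 95% intervals. ROW over the stretch was 50.4% in the first set and 69.9% in the second.

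Where ROW lay on 1 side, the space between it and the Dsk2-WOC stretch had a median of 103 bp (quartiles 67 and 146 bp, highest 698 bp, 436 regions). These regions were narrow, with median merged widths of 616.5 bp (ROW left) and 646.5 bp (ROW right), against 978 bp where ROW covered the stretch. Their ROW intervals were short too, with summed medians of 158.5 and 134 bp against 802 bp. ROW had to be chained to the other lists and, in these classes, not to reach the stretch, so short spaces and short ROW intervals follow in part from the definition.

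Regions with ROW on both sides had a recurring form. In 153 of the 154 there were exactly 2 ROW intervals, separated by a median of 501 bp (quartiles 424 and 618 bp). The Dsk2 bases in these regions summed to a median of 296 bp and the WOC bases to 342 bp. A single Z4 interval overlapped both ROW intervals in 147 of the 153. The class needs ROW on each side, off the stretch, and all intervals in a single chain, so this form follows in part from the definition. The smallest ROW gap was 306 bp, and no neighbours in the ROW list are closer than 301 bp, counted from end to start position, so narrower gaps could not have been seen.

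Coverage was then read around the centre of the Dsk2-WOC stretch. ROW covered 39.8% of centres, and 250 bp away it covered 51.4% on the left and 48.4% on the right. At 1000 bp on the left ROW covered 16.1%. Z4 covered 86.2% of centres, 60.6% at 250 bp to the left and 17.0% at 500 bp. Dsk2 covered 10.7% at 250 bp on either side. In regions with all 5 proteins ROW was also lower at the centre than 250 bp to the left (44.5% and 47.3%), and it was broader, with 47.8% at 500 bp to the left, against 32.2% here, and 33.7% at 1000 bp to the left.

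**Figure D2:**
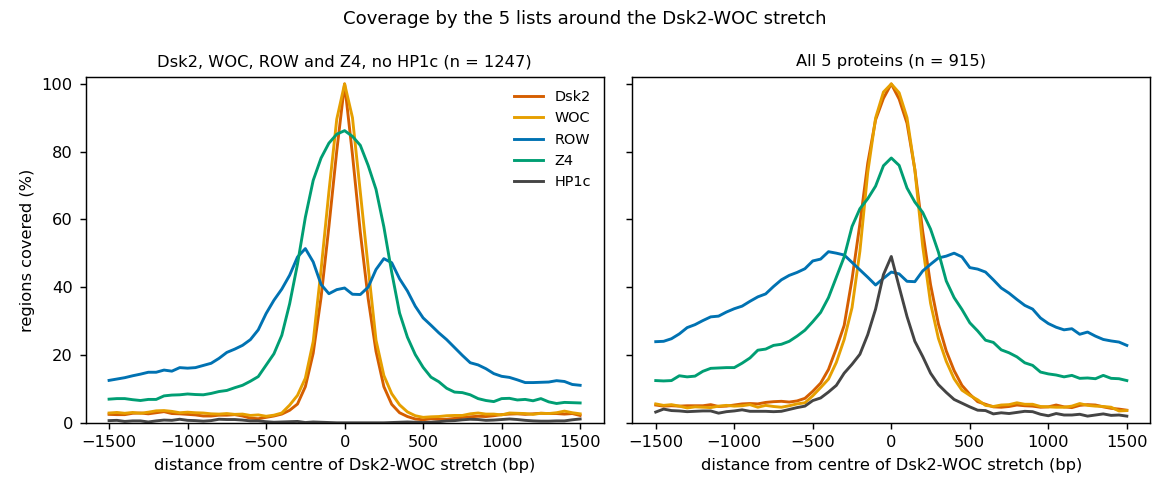
Percent of regions covered by each of the 5 lists (vertical axis) against the distance in bp from the centre of the longest stretch shared by Dsk2 and WOC, in steps of 50 bp. The left panel holds the 1247 regions with such a stretch among those with Dsk2, WOC, ROW and Z4 and no HP1c, the right panel 915 regions with all 5 proteins. Dsk2 and WOC are at 100% at the centre by construction, and ROW is higher 250 bp from the centre than at it in both panels, with 51.4% against 39.8% on the left side of the left panel and 47.3% against 44.5% on that side of the right panel.

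In regions with 1 interval per list, the Dsk2 and WOC midpoints lay a median of 32.5 bp apart, Dsk2 and Z4 66 bp, and Dsk2 and ROW 228 bp. Left and right were balanced, with median signed offsets from the Dsk2 midpoint of 1 bp for WOC, 0 for Z4 and -6 bp for ROW. A tilt appeared once regions with ROW on 1 side were turned to have ROW ahead. The WOC midpoint then lay behind the Dsk2 midpoint, away from ROW, in 269 of 410 regions, and ahead of it in 140. The median shift was -18.25 bp with ROW on the left and -19 bp with ROW on the right. In regions with all 5 proteins the shifts were -9.5 and -12.5 bp. Where ROW covered the stretch the median shift was 1.5 bp (426 regions). Dsk2 was called against another input than WOC and ROW, and the part of the input in this shift was not tested.

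The distance to the nearest HP1c interval, counted from end position to start position, had a median of 9285 bp (quartiles 3442 and 24485 bp). An HP1c interval lay within 500 bp of 91 regions (7.01%, interval 5.68 to 8.53%), against 11.8% of the 10543 HP1c-free merged regions on sequences with an HP1c interval. Within 1000 bp the count was 138 (10.6%), against 17.7% of those HP1c-free regions. Within 10000 bp it was 678 (52.2%), against 57.1%. The HP1c-free regions include the 1299 themselves. Merged regions of any kind, with or without HP1c, were also narrower, with a median of 310 bp against 818 bp. The width of the HP1c-free regions alone is not given here, and the part of width in these differences was not tested. In 1208 regions no HP1c interval lay within 500 bp. Regions with WOC, ROW and Z4 without Dsk2 had HP1c within 500 bp in 9% (6.38 to 12.2%), and those with Dsk2, WOC and Z4 without ROW in 3.64% (2.05 to 5.93%).

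**Figure D3:**
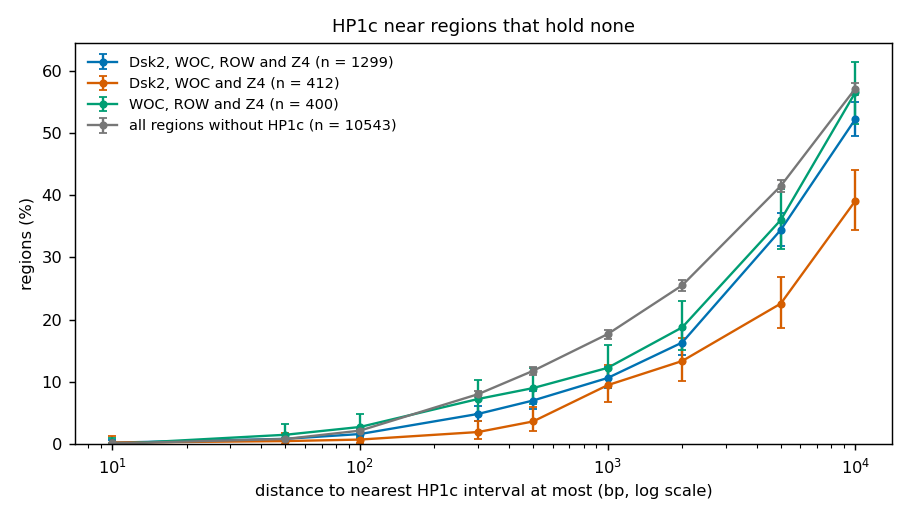
Cumulative share of regions (%, vertical axis) with an HP1c interval at most the given distance away (bp, log scale), for 4 sets of merged regions that hold no HP1c. Points carry exact 95% intervals. The set with Dsk2, WOC, ROW and Z4 stood at 7.01% at 500 bp, against 11.8% for all regions without HP1c.

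Where HP1c lay within 1000 bp, the nearest HP1c interval was more often an isolated one than of any other single kind. Of the 138 regions with HP1c within 1000 bp, 62 (44.9%, interval 36.5 to 53.6%) had as neighbour an HP1c interval that overlapped no other list, and 34 (24.6%) one in a region with all 5 proteins. In the whole HP1c list these kinds made up 28.7% and 41.0%. No neighbours within any list are closer than 301 bp, counted from end to start position. HP1c intervals that overlap the other lists could thus be limited in how near a 4-protein region they lie. Isolated HP1c intervals had no such limit, and its part in these shares was not tested. The neighbouring HP1c intervals had a median width of 133.5 bp, against 121 bp for the whole list. Among regions with ROW on 1 side and HP1c within 1000 bp, HP1c lay on the ROW side in 18 of 25 (72%, interval 50.6 to 87.9%). With HP1c at any distance it lay on the ROW side in 232 of 436 (53.2%, 48.4 to 58.0%), an interval that includes equal sides.

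HP1c proximity differed between the classes of ROW place, on small counts. HP1c lay within 500 bp of 62 regions with ROW over the Dsk2-WOC stretch (9.47%), 6 with ROW to the left only (2.68%), 6 with ROW to the right only (2.83%) and 9 with ROW on both sides (5.84%). The highest share, 8 of 52 (15.4%), was in regions with no base common to Dsk2 and WOC. Their median distance to HP1c was nevertheless 14672.5 bp, and their Dsk2 bases summed to a median of 16 bp. The median distance was 7708 bp with ROW over the stretch, 10345 bp with ROW left, 12198 bp with ROW right and 8452.5 bp with ROW on both sides. Regions with ROW over the stretch were also the wider ones, with a median of 978 bp, and the part of width in these values was not tested.

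Membership turns on a single base. HP1c lay within 10 bp of 3 regions, at 2, 7 and 8 bp. On the other side, 66 of the 921 regions with all 5 proteins had an HP1c overlap of at most 10 bp with any other list, and 15 of them an overlap of 1 bp. Of those 921 regions, 914 held a chain of the other 4 lists without HP1c. The chain itself rested on a link of 1 bp in 43 of the 1299 regions and on one of at most 10 bp in 184.

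The region nearest to HP1c lay on 3R from 5338664 to 5339370. Its Dsk2 interval (216 bp) and WOC interval (242 bp) overlapped the left part of a ROW interval of 480 bp, and Z4 (511 bp) reached to within 2 bp of an HP1c interval of 105 bp that overlapped no list. The second lay on 2L from 8082866 to 8083617, with Dsk2 of 98 bp, WOC of 105 bp, ROW of 122 bp to the right and Z4 of 734 bp. Its HP1c neighbour, 7 bp to the right, overlapped a Dsk2 interval and had 189 bp. The other 3 were on 2R (2520090 to 2521088, 8 bp from HP1c), 3R (14973427 to 14974018, 15 bp) and 3L (19626315 to 19627028, 17 bp). All 3 had ROW over the stretch and an isolated HP1c interval to the left.

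**Figure D4:**
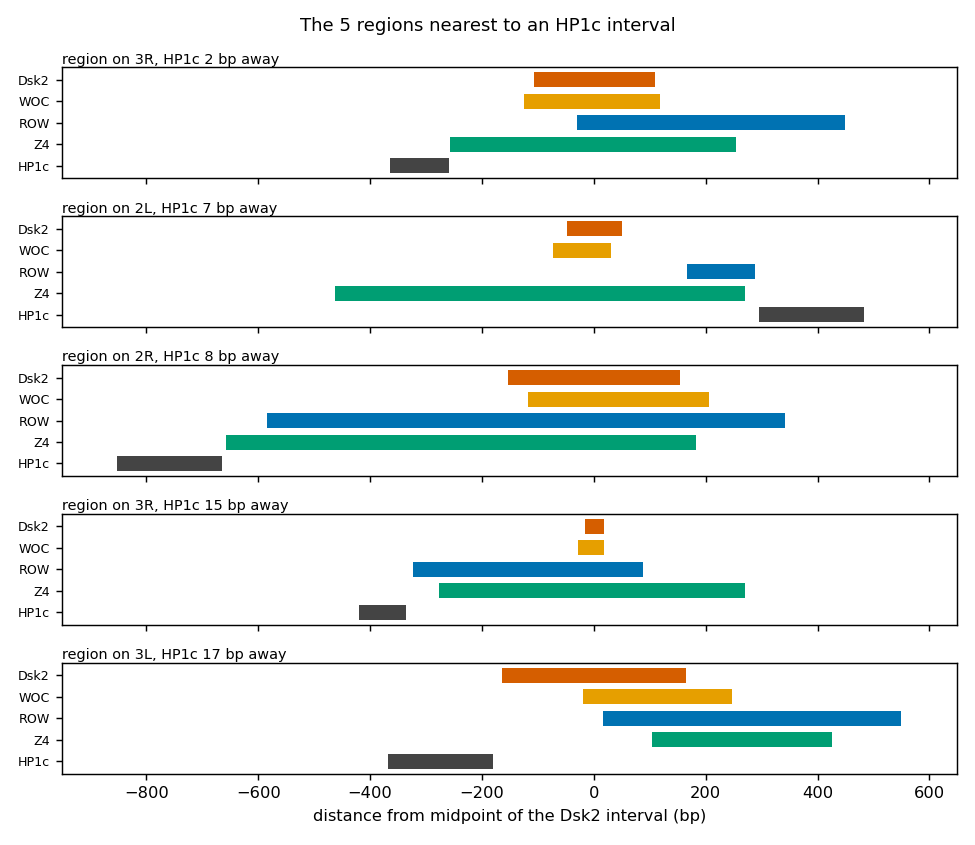
Called intervals of Dsk2, WOC, ROW, Z4 and the nearest HP1c interval in the 5 regions closest to HP1c, drawn to scale against the distance in bp from the midpoint of the Dsk2 interval. The HP1c intervals lie 2, 7, 8, 15 and 17 bp outside the merged regions. The rule keeps HP1c off the 4 intervals drawn.

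The regions farthest from HP1c on the 5 large arms were of ordinary size. The farthest, on 3L from 24530114 to 24531001, was 888 bp wide and 508588 bp from an HP1c interval that was 1 bp long. Dsk2 (345 bp) lay inside WOC (436 bp) there, and ROW (486 bp) began on the last base of the Dsk2 interval. The others were on 3L (10216525 to 10217836 and 23679236 to 23679811) and 2L (20463239 to 20463794 and 20416606 to 20417709), between 325124 and 367573 bp from HP1c. The HP1c interval nearest to each of these 5 lay in a region with all 5 proteins.

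The widest regions were long ROW intervals that carried several others. The widest, on 2R from 6970003 to 6988233, was a single ROW interval of 18231 bp with 6 Z4 intervals (12027 bp in all), 5 WOC intervals (1706 bp) and 1 Dsk2 interval of 2155 bp. It held 750 bp common to all 4 lists, and HP1c was 19394 bp away. On 2L from 491145 to 499999, a ROW interval of 8855 bp held 5 Dsk2, 5 WOC and 6 Z4 intervals, and HP1c lay 276 bp to the left. There 3 of the Dsk2 intervals lay between 492329 and 493488 and the other 2 between 498267 and 498965. On X from 17181515 to 17189368, ROW (7623 bp) covered most of 5 Dsk2 and 5 WOC intervals, which together measured 1409 and 1395 bp. The next widest, on 3R (5920226 to 5926004, 5779 bp) and 3L (4542437 to 4547940, 5504 bp), had HP1c 759 and 322 bp away. These first 3 regions also held the most intervals, 17 on 2L, 17 on X and 13 on 2R. ROW intervals over 2000 bp numbered 90 in the whole set, of 367 in the ROW list.

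At the other end, the narrowest region, on 2L from 20913105 to 20913220, was 116 bp wide and stacked Dsk2 (85 bp), WOC (115 bp), ROW (100 bp) and Z4 (60 bp), with all 60 Z4 bases common to the 4 lists. The next narrowest, of 207 and 208 bp, lay on the unplaced sequence Uextra (14899280 to 14899486) and on 3RHet (1769130 to 1769337). The longest stretches common to all 4 proteins summed to 835 bp on 2R (8392802 to 8395435), 809 bp on 2L (8669999 to 8673973) and 754 bp on 2RHet (197289 to 199776). The nearest HP1c intervals to these were 30936, 17305 and 272051 bp away.

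The X chromosome held a low share of these regions. It carried 142 (10.9%, interval 9.29 to 12.8%), against 19.1% of all 13044 merged regions. Regions with all 5 proteins had 13.0% on X (10.9 to 15.4%), while regions with Dsk2, WOC and Z4 without ROW or HP1c had 28.7% (24.4 to 33.4%). Arm 2R showed the opposite order, with 22.5% of the 4-protein regions (20.2 to 24.8%), 10.9% of those without ROW (8.04 to 14.3%) and 18.9% of all merged regions. The density over the span of the lists was 6.34 regions per Mb on X, against 10.2 to 13.8 on the other 4 large arms. Arm was not used to choose the regions, but the lists themselves are unevenly spread over the arms.

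**Figure D5:**
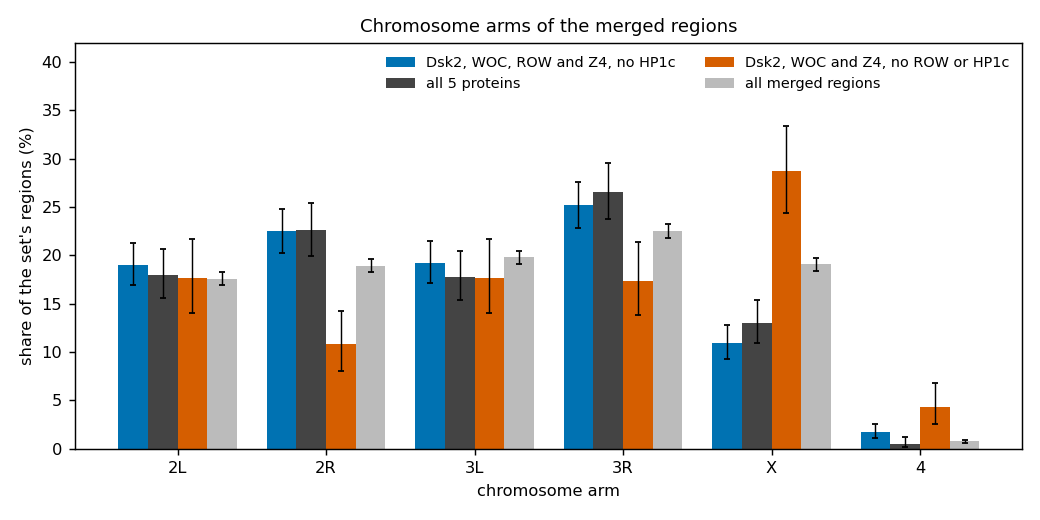
Share of each set's merged regions (%, vertical axis) on the 5 large arms and chromosome 4, with exact 95% intervals as error bars. Blue bars are the regions with Dsk2, WOC, ROW and Z4 and no HP1c. On X they stood at 10.9%, against 28.7% for the set without ROW (orange) and 19.1% for all merged regions (light grey).

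The same counts can be given as shares with and without ROW or HP1c by arm. They use the values that define the regions, and only their spread over the arms was free to vary. Among HP1c-free regions with Dsk2, WOC and Z4, ROW was present in 54.4% on X (142 of 261, interval 48.2 to 60.6%) and in 80.9% on the other 4 large arms (1116 of 1379, 78.8 to 83.0%). Each of these 4 arms was above X, from 77.2% on 2L to 86.6% on 2R. Chromosome 4 was close to X, with 55% (22 of 40, interval 38.5 to 70.7%). Among regions that also held HP1c, ROW was present in 72.7% on X (65.3 to 79.4%) and in 84.5% on the other 4 arms (82.0 to 86.7%). Among regions with all of Dsk2, WOC, ROW and Z4, HP1c was present in 45.8% on X (39.7 to 52.04%) and 41.2% elsewhere on the large arms (39.0 to 43.5%). The regions on X had a median width of 757.5 bp and a summed ROW width of 350 bp, and those on 2R 890 and 607.5 bp.

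Chromosome 4, the small heterochromatin-rich autosome, carried 22 of the regions (1.69%, interval 1.06 to 2.55%), against 0.782% of all merged regions and 0.543% of those with all 5 proteins (5 regions, 0.177 to 1.26%). Regions with Dsk2, WOC and Z4 without ROW or HP1c had a higher share there, 4.35% (18 regions, 2.60 to 6.78%). Those with WOC, ROW and Z4 without Dsk2 or HP1c had 0.25% (1 region). HP1c was present in 5 of 27 regions with the other 4 proteins there (18.5%, 6.30 to 38.1%). The 22 regions had a median distance to HP1c of 51270 bp, with only 10 HP1c intervals on the chromosome and none within 500 bp of a member. The widest, from 212730 to 214919, had ROW (1602 bp) to the left of Dsk2 (293 bp) and WOC (463 bp), and HP1c 11673 bp away.

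Distances to HP1c varied among the large arms from a median of 6315 bp on 3R to 11381 bp on 2R. The share with HP1c within 500 bp lay between 6.16% (2R) and 8% (3L).

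The values depend on how overlap was defined. With every interval set to 200 bp around its midpoint and chained anew, 626 regions fell in the class. With the widest 50% of each list the number was 569, of which 5.80% lay on X and 3.87% had HP1c within 500 bp. HP1c was cut to its widest 50% as well, so the 3.87% counts fewer HP1c intervals than the 7.01% of the main setting. How many of the 1299 regions were in these new sets was not counted. When links needed 50 shared bases, 22.4% had HP1c within 500 bp. Shorter HP1c overlaps then no longer removed a region, so this share also counts any region that HP1c overlapped by fewer bases. How many did was not counted.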

How the data were processed

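The deposited files give positions (chromosome, start and end) of called regions for 5 immunoprecipitations, per the labels 1 library each, with no score or read number. The authors called regions against input, per the series' design text. The genome build was dm3 and the tools were Bowtie 0.12.5, CASAVA 1.8 and FastQC 0.9.3, per the submitters' processing notes. The sources used here name no peak caller or threshold. The 2 inputs have no region list and were not analysed here.

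Some intervals start and end on the same base (50 for HP1c to 200 for ROW), so both ends were counted as inside. Intervals sharing at least 1 bp were chained, and regions with exactly Dsk2, WOC, ROW and Z4 were kept. The chaining was tested on simulated data. The regions and the comparisons were chosen with earlier results of these data known. Named regions are the widest, narrowest, nearest to and farthest from HP1c, those with most intervals or the longest common stretch, and the widest on chromosome 4 and each large arm. Software was SciPy 1.17.1, pandas 2.3.3 and NumPy 2.4.6 under Python 3.11.15, with matplotlib 3.10.9 for plots. Alternatives changed the interval ends, a 50 bp minimum width or overlap, the widest 50% of each list, and 200 bp windows.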

Additional observations from a re-analysis of the deposited data

How the results depend on the processing

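Each list is 1 library with no score, so neither the strength of an interval nor a replicate could be used, and depth limits are unknown. No paired analysis was possible because no protein has a second library. End-exclusive intervals left all 5 values (number, share with a base common to the 4 lists, median width, shares near HP1c and on X) within their intervals, or within 1.5 times for the number. So did the 5 large arms alone and, for the 4 values it allows, the removal of regions with HP1c within 500 bp, both chosen after seeing the data. Intervals of at least 50 bp gave 48.4% with a common base, a median width of 887 bp and 5.56% with HP1c within 500 bp. The widest 50% of each list gave 569 regions, 63.8% with a common base, a median of 1090 bp, 3.87% with HP1c within 500 bp and 5.80% on X. Both the 50 bp minimum width and the widest 50% also cut the HP1c list. Their shares near HP1c thus count fewer HP1c intervals than the main 7.01%. Links of at least 50 shared bases gave 51.7%, 897.5 bp and 22.4% with HP1c within 500 bp. HP1c intervals with shorter overlaps then no longer excluded a region, and any region overlapped in this way is counted in the 22.4%. Windows of 200 bp gave 626 regions, 50% with a common base and a median of 399.5 bp, which is set by the windows. The causes of the other shifts, and the part of short HP1c overlaps in the 22.4%, were not tested.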

Other observations

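The nearest merged region of any kind was a median of 1151 bp from a region of the set (quartiles 348.5 and 2917 bp), a distance not computed for other sets. It was another region with the same 4 proteins in 213 cases (16.4%, exact 95% interval 14.4 to 18.5%), a kind that makes up 9.96% of all merged regions, and a ROW-only region in 310 (23.9%, against 26.3% of all merged regions). On the 5 large arms, consecutive regions of the set were a median of 37572 bp apart, and 44 of 1253 such neighbours were within 1000 bp.

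Outside the large arms and chromosome 4, 19 regions of the set lay on heterochromatic or unplaced sequence (8 on 2RHet, 5 on 3RHet, 4 on 3LHet and 1 each on U and Uextra). They made up 1.46% of the set (0.883 to 2.27%), against 1.27% of all merged regions.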
